A study of Mus musculus with 12 samples.

Results

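The 10 genes described here encode the latent TGF-beta binding proteins (Ltbp1, Ltbp2, Ltbp3 and Ltbp4), the fibrillins (Fbn1 and Fbn2), the fibulins (Fbln1, Fbln2 and Fbln5) and elastin (Eln). They were chosen by symbol, 10 of the 56860 named genes in the counts, by a rule that uses no measured value. The choice was made with earlier results of these data known. The cells were primary oligodendrocytes (OLs) of C57BL/6J mice, captured with beads against the surface antigen O4, expanded with PDGF-AA and matured with insulin, triiodothyronine and ciliary neurotrophic factor. The 6 siEgr2 libraries came from cells transfected against Egr2 and the 6 siNC libraries from cells given the negative control, all harvested 48 h later, and nothing else is stated to differ between the groups. The labels give the tissue as medial prefrontal cortex and the methods give it as the cortex of newborn mice, and the methods name both an siRNA and an interference plasmid. Whether the libraries of a group came from separate cultures is not stated, so the p-values measure only the spread between these libraries, which may be technical.

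These proteins build the extracellular scaffold that holds TGF-beta in a latent form and gives tissue its elasticity. Fibrillins assemble into microfibrils, tropoelastin is deposited on them and crosslinked into elastic fibres, and fibulins join elastin to microfibrils and to basement membranes. Most latent TGF-beta binding proteins are attached to the TGF-beta propeptide by disulphide bonds before secretion and then anchor the latent complex to fibrillin. In the brain this scaffold is best known from vessels and meninges.

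Total counts were 28682946 to 39383014 in the siNC libraries and 8034251 to 16683677 in the siEgr2 libraries, and the 18S ribosomal RNA gene Rn18s-rs5 took 0.142% to 1.05% and 10.5% to 16.5% of them. Depth and ribosomal RNA share therefore separate the libraries as the treatment does, and these cannot be told apart by a model of the groups. Levels are given as CPM, the counts of a gene scaled to the size of its library with TMM factors. The targeted gene Egr2 had 3.89 to 7.06 CPM in siNC and 2.22 to 4.86 CPM in siEgr2, a log2 fold change of -0.51 (standard error 0.21) that missed the threshold (adjusted p = 0.0981, quasi-likelihood test of edgeR). It was -0.70 and passed with scaling by library size alone (adjusted p = 0.0144), and -0.30 without siEgr2 replicates 1 and 2 (adjusted p = 0.335), which are the ends of its range over the alternatives in edgeR's test. Of all 16600 tested genes 5.08% were called lower and 2.63% higher, which the counts of markers stand beside. Among markers listed for each cell type, all 8 genes of oligodendrocytes were detected, and their summed level was 7279 to 8302 CPM in siNC and 6836 to 7118 CPM in siEgr2, with 0 of the 8 called. Of the 8 astrocyte markers 5 were called lower, and their sum was 8119 to 8814 CPM in siNC and 5206 to 5870 CPM in siEgr2. Of the 12 listed fibroblast and pericyte markers 9 were tested and 3 were called lower, with sums of 823 to 1373 and 841 to 1044 CPM. All 3 tested markers of smooth muscle (of 5) were called lower, with sums of 213 to 249 and 120 to 160 CPM. Precursor markers had 2 of 7 called higher, with sums of 4918 to 5141 and 5920 to 6057 CPM. Endothelial markers summed to 25.9 to 35.0 and 27.5 to 38.0 CPM (1 of 3 tested called lower) and microglial markers to 2.61 to 4.83 and 1.95 to 5.63 CPM (0 of 3 tested called), and Cldn5, Aif1 and Itgam had no count in any library. Neuronal markers summed to 393 to 650 and 387 to 624 CPM, with 0 of 5 called. In bulk RNA, fewer cells of a type and less RNA per cell cannot be told apart, and the part of these cell types in the results that follow was not tested.

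All 10 genes were detected in every library, with 433 to 4764 counts in siNC and 81 to 2240 counts in siEgr2, and all 10 passed the filter on low counts. After siEgr2, 3 of the 10 were called lower, meaning that the adjusted p was under 0.05 and the log2 fold change beyond 0.5 in size: Fbln2, Eln and Ltbp1. This compares with 5.08% of the 16600 genes tested that were called lower, and 0 of the 10 were called higher, against 2.63%. By the adjusted p alone 6 of the 10 fell, against 11.3% of tested genes, and 2 rose, against 8.57%. The rising genes, Ltbp4 and Fbn2, each have a close relative among the falling ones. The median log2 fold change of the 10 genes was -0.45, and that of all tested genes was 0.0046. Leaving out siNC replicate 1, siNC replicate 4, siEgr2 replicate 4 or siEgr2 replicate 6 gave 5 genes called lower in place of 3, since Ltbp2 and Fbn1 lie just inside the fold change threshold. The numbers called lower over all genes were then 800 of 16161, 836 of 16155, 840 of 17382 and 893 of 17357, in that order.

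**Figure D1:**
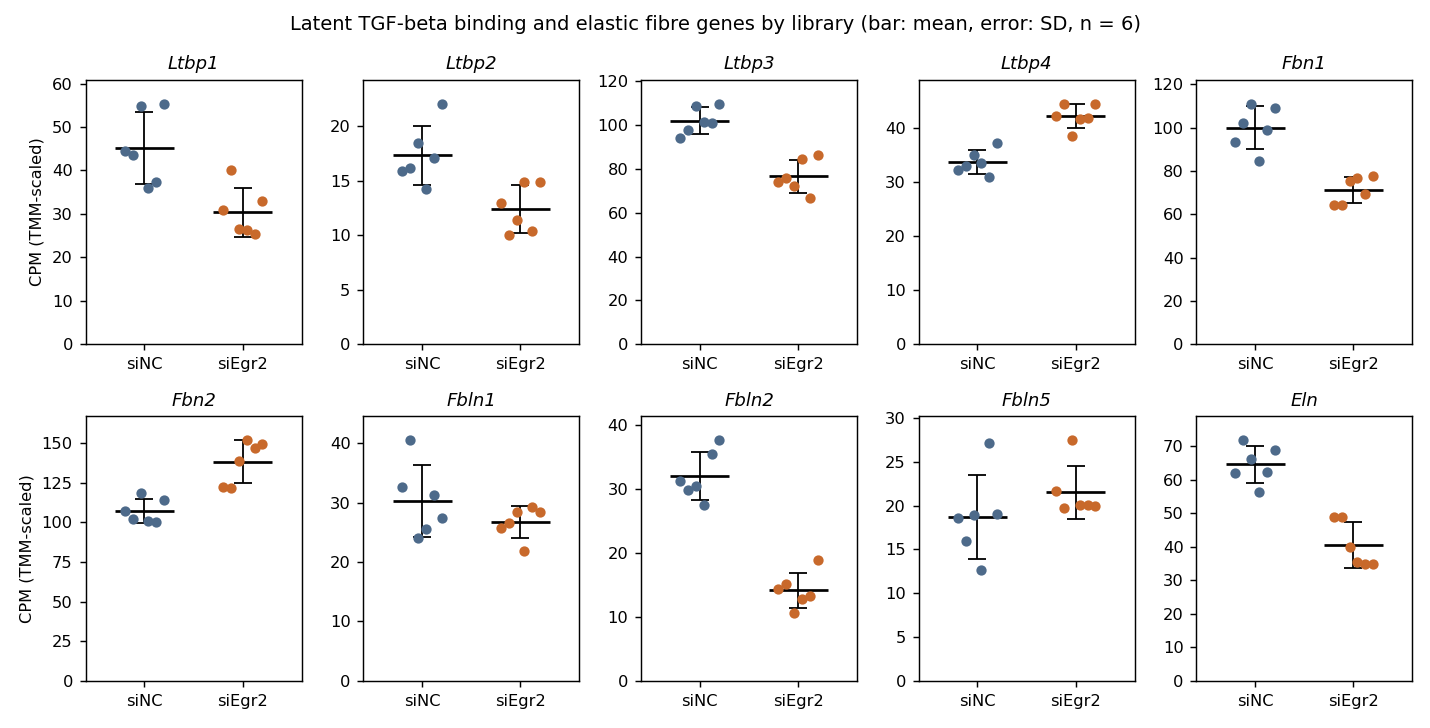
Level of each of the 10 genes in every library, as CPM on a linear axis from 0, with points for the 6 siNC (blue) and 6 siEgr2 (orange) libraries, a bar at the mean and an error bar of 1 SD. The groups are separate for Ltbp3, Ltbp4, Fbn1, Fbn2, Fbln2 and Eln and overlap for Ltbp1, Ltbp2, Fbln1 and Fbln5.

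The groups were fully separated in 6 of the 10 genes. In 4 of them every siEgr2 library lay below every siNC library, as in 7.00% of tested genes, and in 2 every siEgr2 library lay above, as in 4.15%.

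Ltbp1, a protein that carries latent TGF-beta to the matrix, is encoded on chromosome 17 (GRCm38) between 75005568 and 75392512. Its level was 36.0 to 55.4 CPM in siNC (median 44.0) and 25.4 to 40.1 CPM in siEgr2 (median 28.7). All but 1 of the siEgr2 libraries lay below every siNC library, and siEgr2 replicate 2 was the exception. Mean levels of Ltbp1 were 45.3 ± 8.30 CPM and 30.4 ± 5.64 CPM (SD, n = 6 each), and its log2 fold change of -0.58 had a standard error of 0.13 (adjusted p = 0.00769 in edgeR's test).

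Ltbp3, another carrier of latent TGF-beta, lies on chromosome 19 from 5740904 to 5758532. It had 94.2 to 109.7 CPM in siNC (median 101) and 66.5 to 86.2 CPM in siEgr2 (median 75.01), with no overlap. Ltbp3 changed by -0.41 on the log2 scale (standard error 0.063, adjusted p = 0.000188 in edgeR's test), in size under the fold change threshold.

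Ltbp2 lies on chromosome 12 from 84783212 to 84876532, and its product binds fibrillin but not latent TGF-beta. Its level was 14.2 to 22.1 CPM in siNC (median 16.6) and 10.01 to 14.9 CPM in siEgr2 (median 12.2). The ranges met, since 2 siEgr2 libraries, replicates 4 and 6, lay above the lowest siNC library. Ltbp2 changed by -0.48 on the log2 scale (standard error 0.13, adjusted p = 0.0136 in edgeR's test), close to but under the fold change threshold.

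Ltbp4 went the other way. This protein takes part in the assembly of elastin together with fibulin-5 and lies on chromosome 7 from 27305136 to 27337692. Its level was 31.0 to 37.3 CPM in siNC (median 33.4) and 38.6 to 44.5 CPM in siEgr2 (median 42.0), with no overlap. The mean increased from 33.7 ± 2.21 to 42.3 ± 2.19 CPM (SD, n = 6 each), a log2 fold change of 0.32 (standard error 0.059, adjusted p = 0.000950 in edgeR's test). When CPM were scaled by library size alone, which moved the median of all genes to -0.18, the rise was 0.14 and no longer passed (adjusted p = 0.0737, against 7.85e-06 to 0.0737 over all alternatives).

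The upstream sequences of 3 of these relatives are shown because Ltbp4 rose while Ltbp1 and Ltbp3 fell. RefSeq starts (GRCm38.p6) were used for 8 of the 10 genes, giving 13 windows of the 250 bases before a start. Fbn2 and Eln were left out of this search. Whether windows of Fbn2, the other rising gene, hold these motifs was therefore not tested. Both strands were searched for GCGNGGGCG, the binding motif of the Egr family, for the AP-1 motif TGANTCA and for the GC box GGGCGG. The Egr motif was found in 3 of the 13 windows, which are 2 of the 3 of Ltbp4 (overlapping windows with the same 2 matches, at starts inside the annotated gene) and 1 of the 2 of Fbln1, while 4.70% of 32851 promoter windows of this length hold it. The third Ltbp4 window, at the annotated 5′ end of the gene, holds no Egr motif and is not printed because it overlaps an exon. The Ltbp2 window, of a gene that also fell, holds 2 GC boxes and no Egr motif and overlaps an exon too. A second Ltbp1 window, at a start inside the gene, holds none of the 3 motifs and is not printed either, since the first lies at the 5′ end of the gene. The AP-1 motif was in 0 of the 13 windows (6.75% of all) and the GC box in 8 (32.7% of all). Capitals mark the Egr motif, with the matches starting 98 and 50 bases before this internal Ltbp4 start, and neither overlaps a GC box. The windows printed hold no annotated exon of their gene and lie at chr7:27333664-27333913 (minus strand, 79.2% G and C), chr17:75005279-75005528 (plus strand, 56.8%) and chr19:5740650-5740899 (plus strand, 47.2%).
Ltbp4: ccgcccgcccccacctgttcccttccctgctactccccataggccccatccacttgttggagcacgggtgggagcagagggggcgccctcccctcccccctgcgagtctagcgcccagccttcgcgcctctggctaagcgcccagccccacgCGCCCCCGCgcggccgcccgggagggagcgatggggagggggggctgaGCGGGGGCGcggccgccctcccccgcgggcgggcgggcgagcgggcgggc
Ltbp1: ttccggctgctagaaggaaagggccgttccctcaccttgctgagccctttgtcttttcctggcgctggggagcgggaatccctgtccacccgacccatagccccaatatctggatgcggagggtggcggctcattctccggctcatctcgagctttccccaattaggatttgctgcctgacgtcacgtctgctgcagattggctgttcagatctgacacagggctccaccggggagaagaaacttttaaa
Ltbp3: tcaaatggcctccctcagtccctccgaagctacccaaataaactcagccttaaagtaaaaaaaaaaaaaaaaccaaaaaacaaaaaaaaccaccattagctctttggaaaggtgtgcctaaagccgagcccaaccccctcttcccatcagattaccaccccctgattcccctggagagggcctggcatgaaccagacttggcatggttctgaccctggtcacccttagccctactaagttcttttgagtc
A match describes the letters in the window only, and binding was not measured in these libraries. The Fbln1 match begins 10 bases before a start inside the gene, lies in an annotated exon and overlaps a GC box.

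Fbn1 and Fbn2 moved apart. Fibrillin-1 is the main protein of microfibrils and fibrillin-2 is best known from development. Fbn1, on chromosome 2 from 125300594 to 125507993, had 84.7 to 111 CPM in siNC (median 101) and 64.1 to 77.6 CPM in siEgr2 (median 72.3). Fbn2, on chromosome 18 from 58008623 to 58210487, had 100.4 to 119 CPM in siNC (median 104) and 121 to 152 CPM in siEgr2 (median 142). Neither pair of ranges overlapped. Fbn1 fell by 0.49 on the log2 scale (standard error 0.071, adjusted p = 0.000136 in edgeR's test) and Fbn2 rose by 0.37 (standard error 0.065, adjusted p = 0.000729), both under the fold change threshold. With scaling by library size alone the rise of Fbn2 was 0.18 (adjusted p = 0.0372 in edgeR's test, the highest of its alternatives). Within the siEgr2 group, replicates 1 and 2 were the lowest for both genes. The antisense gene Gm9913 overlaps 2442 exonic bases of Fbn1, 20.1% of its exons, and had 5 to 30 counts in siNC and 0 to 6 in siEgr2. Whether the counting used strand is not stated.

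Of the fibulins among the 10 genes, Fbln2 changed, and Fbln1 and Fbln5 did not pass. Fibulin-2 binds fibrillin, tropoelastin and basement membrane proteins. Fbln2, on chromosome 6 from 91212455 to 91272540, had 27.5 to 37.5 CPM in siNC (median 30.8) and 10.6 to 18.8 CPM in siEgr2 (median 13.8). Even the highest siEgr2 library lay well under the lowest siNC library. Fbln2 went from a mean of 32.0 ± 3.75 CPM to 14.1 ± 2.77 CPM (SD, n = 6 each), a log2 fold change of -1.18 (standard error 0.12, adjusted p = 3.21e-06 in edgeR's test). This fall ranked 230 among the 16600 tested genes and was the only one of the 10 to exceed 1 on the log2 scale.

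Fbln1, whose product binds fibronectin and basement membranes, lies on chromosome 15 from 85205949 to 85286535. It had 24.0 to 40.5 CPM in siNC (median 29.4) and 21.9 to 29.2 CPM in siEgr2 (median 27.4), with 1 siEgr2 library below every siNC library. The change of Fbln1 was -0.18 on the log2 scale (standard error 0.12, adjusted p = 0.30 in edgeR's test), and the siNC libraries varied more (coefficient of variation 19.8%) than the siEgr2 libraries (10.1%). Fbln5, which tethers elastin to microfibrils and cells, lies on chromosome 12 from 101746565 to 101819055. It had 12.7 to 27.1 CPM in siNC (median 18.8) and 19.7 to 27.4 CPM in siEgr2 (median 20.1). The change of Fbln5 was 0.20 on the log2 scale (standard error 0.15, adjusted p = 0.375 in edgeR's test), and its siNC libraries had the widest spread of the 10 genes, a coefficient of variation of 25.6%. With library size only, the Fbln1 change was -0.36 and passed the adjusted p (0.0281, against 0.0281 to 0.622 over all alternatives), and that of Fbln5 was 0.025. The Fbln1 change was -0.081 without siNC replicate 2, and the Fbln5 change was 0.34 without siNC replicate 5 and 0.12 without siNC replicate 4 or siEgr2 replicate 3, none of them passing.

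Eln, the gene of the elastic core protein, lies on chromosome 5 from 134702593 to 134747323. It had 56.2 to 71.7 CPM in siNC (median 64.3) and 34.7 to 48.9 CPM in siEgr2 (median 37.6), with no overlap. Its mean was 64.6 ± 5.57 CPM in siNC and 40.4 ± 6.84 CPM in siEgr2 (SD, n = 6 each), a log2 fold change of -0.67 (standard error 0.096, adjusted p = 0.000116 in edgeR's test). The siEgr2 libraries were not even, since replicates 1 and 2 had 48.9 and 48.8 CPM and the other 4 had 34.7 to 39.8 CPM. Without these 2 libraries, an alternative added once the values were known, the fall of Eln was -0.84 and the rise of Fbn2 was 0.45.

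**Figure D2:**
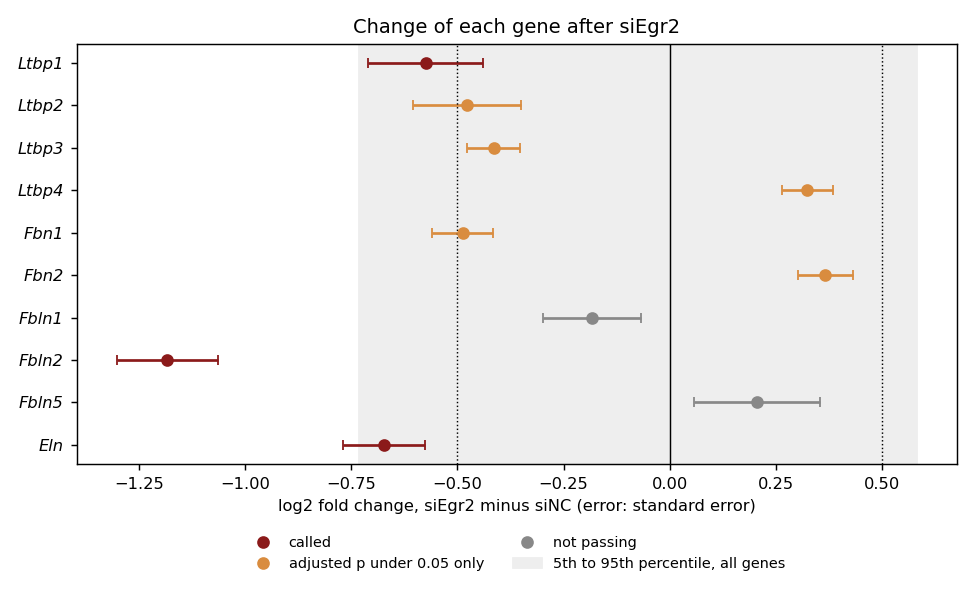
Log2 fold change (siEgr2 minus siNC) of each gene with its standard error from edgeR's quasi-likelihood fit. Dotted lines mark the threshold of 0.5 in either direction and the grey band runs from -0.73 to 0.58, the 5th to the 95th percentile of all tested genes. Fbln2 lies outside the band, and Ltbp4 and Fbn2 lie to the right of 0 with all of Ltbp1, Ltbp2, Ltbp3 and Fbn1 to the left.

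To ask whether relatives changed by different amounts, the log2 ratio of 2 genes was taken within each library, where the scaling of the library has almost no effect. Of 10 pairs inside the 3 families, 6 ratios differed between the groups after Benjamini-Hochberg adjustment over the 10 pairs. Every pair with Ltbp4 was among them. The log2 ratio of Ltbp3 to Ltbp4 was 1.58 ± 0.059 in siNC and 0.84 ± 0.13 in siEgr2 (SD, n = 6 each), a difference of -0.74 (standard error 0.057, two-sided exact permutation test, p = 0.00216, adjusted p = 0.00361). The ratio of Ltbp1 to Ltbp4 was 0.098 to 0.64 in siNC and -0.71 to -0.15 in siEgr2, with no overlap. These ratios are of CPM without correction for length, so their position against 0 does not say which gene had the higher level. Its difference was -0.89 (standard error 0.11) and that of Ltbp2 to Ltbp4 was -0.79 (standard error 0.12), with the same exact p, the smallest that 6 against 6 libraries allow.

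The fibrillin ratio had the smallest standard error of the 10. The log2 ratio of Fbn1 to Fbn2 lay between -0.25 and 0.0086 in siNC and between -1.08 and -0.87 in siEgr2, a difference of -0.85 (standard error 0.051, exact permutation p = 0.00216, adjusted p = 0.00361). Among the fibulins of the 10 genes, Fbln2 changed against both relatives. The ratio of Fbln2 to Fbln5 fell from 0.79 ± 0.25 to -0.60 ± 0.41 (SD, n = 6 each), a difference of -1.39 (standard error 0.20), and that of Fbln1 to Fbln2 rose from -0.093 ± 0.31 to 0.91 ± 0.29, a difference of 1.0 (standard error 0.17), each at the same exact p. For the other 4 pairs no difference was shown with all libraries. The differences were -0.099 (standard error 0.17) for Ltbp1 to Ltbp2, -0.15 (0.13) for Ltbp1 to Ltbp3, -0.052 (0.090) for Ltbp2 to Ltbp3 and -0.38 (0.19) for Fbln1 to Fbln5, with adjusted p between 0.114 and 0.580 in the exact permutation test. Of these 4, 2 depended on 1 library each, since Ltbp1 to Ltbp2 passed without siEgr2 replicate 2 (-0.24, adjusted p = 0.0495, exact permutation test) and Fbln1 to Fbln5 passed without siNC replicate 5 (-0.48, adjusted p = 0.0371, exact permutation test). The difference for Ltbp1 to Ltbp2 was -0.0088 without siEgr2 replicate 4, and over the libraries left out its adjusted p ran to 0.968 and that of Fbln1 to Fbln5 to 0.213 (exact permutation test). Such a ratio shows unequal change and not which gene moved.

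**Figure D3:**
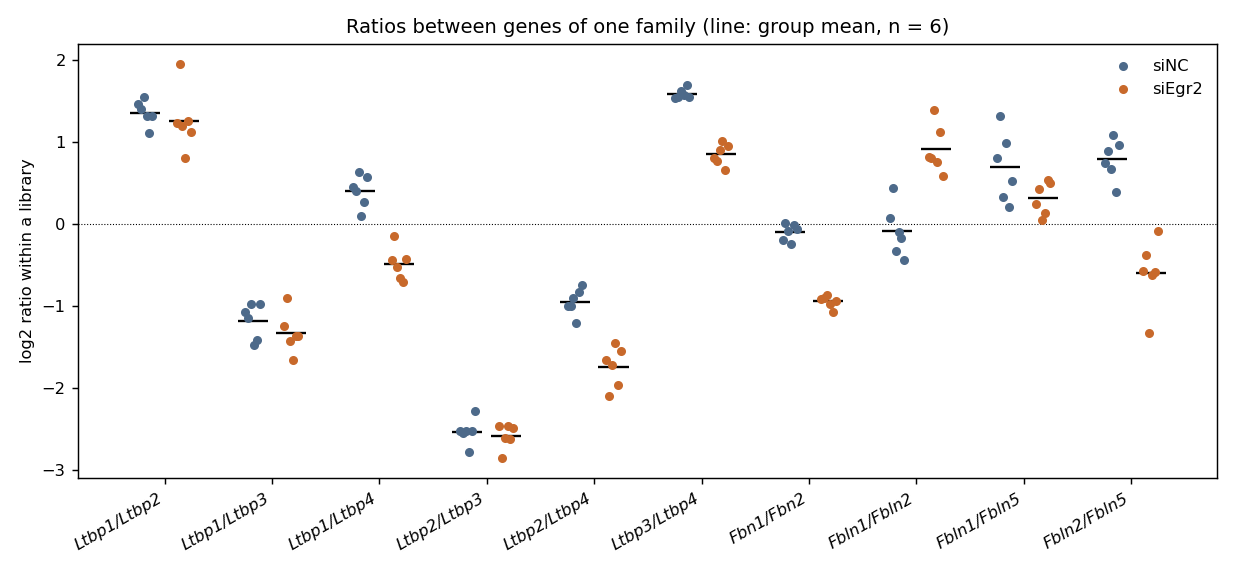
Log2 ratio between 2 genes of a family in each library (siNC blue, siEgr2 orange, black line at the group mean). The 6 siNC and 6 siEgr2 points are separate for the 3 pairs with Ltbp4, for Fbn1/Fbn2, Fbln1/Fbln2 and Fbln2/Fbln5, and overlap for the other 4 pairs.

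Levels of different genes were compared per kilobase of exon in GENCODE M21 (GRCm38), with exon lengths of 4368 to 13215 bases. In siNC, Ltbp3 stood highest with 11.2 ± 0.666 CPM per kb (SD, n = 6), above Fbn1 with 8.24 ± 0.820 CPM per kb and with no overlap. Below Ltbp3 the order was Fbn1, Fbn2, Eln, Fbln1, Ltbp4, Fbln2, Ltbp1, Fbln5 and Ltbp2, and the ranges of each pair of neighbours overlapped, down to 2.12 ± 0.331 CPM per kb for Ltbp2. In siEgr2, Fbn2 came first with 10.5 ± 1.02 CPM per kb, overlapping Ltbp3 with 8.44 ± 0.826 CPM per kb. The order then ran Ltbp4, Fbln1, Fbn1, Eln, Fbln5, Ltbp1, Fbln2 and Ltbp2. Only the steps from Ltbp3 to Ltbp4 and from Eln to Fbln5 had no overlap. As a share of the summed level per kb of the 10 genes, Fbn2 went from 13.1% to 20.1%, Ltbp4 from 8.45% to 12.6%, Eln from 12.9% to 9.58% and Fbln2 from 8.13% to 4.26%. The sum itself was 61.8 ± 4.04 CPM per kb in siNC and 52.1 ± 1.87 CPM per kb in siEgr2, with ranges that overlapped (55.0 to 66.8 and 50.2 to 55.6).

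The 6705 tested genes with exon lengths in the range of the 10 had a median log2 fold change of -0.0037, and 5.62% of them were called lower.

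Of the genes that work beside these proteins, a list of 26 elastic fibre and microfibril partners had 23 tested, of which 4 (17.4%) were called lower, 0 higher and 19 were not called (median log2 fold change -0.25). Of all 16600 tested genes 5.08% were called lower and 2.63% higher, and their median was 0.0046. By the adjusted p alone 6 of the 23 fell, against 11.3% of all, and 2 rose, against 8.57%. The 4 were Fkbp10, a prolyl isomerase that folds procollagen and tropoelastin (-0.62), Efemp2, or fibulin-4, which brings lysyl oxidase to elastin (-0.61), Fbln7 (-0.59) and Adamtsl4, which binds fibrillin-1 (-0.57). Efemp2 fell from a mean of 56.5 to 37.1 CPM (adjusted p = 9.01e-05 in edgeR's test), whereas Efemp1, or fibulin-3, had -0.14 (adjusted p = 0.591). The list had 7 called lower with scaling by library size alone, where 1737 of all 16600 genes were, and 2 without siEgr2 replicates 1 and 2, where 900 of 17718 genes were. In the latter, Fbln7 kept its size (-0.60) and missed the adjusted p (0.0558 in edgeR's test, 0.00236 to 0.0606 over its alternatives), as it also did with limma-voom and with thinned counts, while Adamtsl4 was at -0.47, and at -0.48 without siEgr2 replicate 2 alone, under the fold change threshold.

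TGF-beta latency and activation was covered by 18 genes, of which 16 were tested, 4 (25%, against 5.08% of all tested genes) were called lower and 0 higher (median -0.30), and by the adjusted p alone 10 fell (against 11.3% of all). The number called lower ranged over the alternatives from 3 to 8. It was 3 in limma-voom for example, where 873 of all 16600 genes were called lower. It was 8 with scaling by library size alone, where 1737 of all 16600 genes were. Without siEgr2 replicates 1 and 2 it was 6 of 17 tested, where 900 of 17718 genes were. The called genes were Tgfb3 (-0.76), Tgfb1 (-0.75), Mmp14, a membrane metalloproteinase (-0.75), and Itgb5, an integrin subunit that pairs with the alpha v chain (-0.68). The alpha v gene itself, Itgav, named here after its values were seen, had means of 173 CPM in siNC and 271 CPM in siEgr2, a log2 fold change of 0.65 that missed the threshold (adjusted p = 0.0597 in edgeR's test, 0.0114 to 0.149 over the alternatives). It was called higher with DESeq2, with limma-voom and without siNC replicate 4 or 5. Tgfb3 fell from a mean of 19.4 to 11.5 CPM (adjusted p = 0.00172 in edgeR's test). Tgfb1 rested on 8 to 28 counts per siEgr2 library and kept a log2 fold change of -0.95 to -0.67 over 24 alternatives, in 16 of which it was not called (adjusted p = 0.0486 in edgeR's test, 0.00853 to 0.109 over the alternatives). Tgfb2 had a log2 fold change of -0.45 (adjusted p = 0.000148), under the fold change threshold. Among 9 receptors and Smads, all tested, 1 was called lower, Smad3, which passes the TGF-beta signal to the nucleus (-0.54). It was not called without siNC replicate 6 (-0.50). The median of these 9 was 0.042, and its sign was not the same in all alternatives (-0.14 to 0.080).

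Textbook TGF-beta target genes numbered 16, all tested, of which 6 (37.5%, against 5.08% of all tested genes) were called lower, 0 higher and 10 were not called (median -0.26). Among the genes called were Cnn1, a smooth muscle calponin (-1.92), Tgif1, a corepressor of Smads (-0.72), and Bambi, a decoy receptor (-0.64). Cnn1 rested on 10 to 80 counts per siEgr2 library, and its log2 fold change was -2.52 without siEgr2 replicate 3 and -1.54 without siEgr2 replicates 1 and 2. Cnn1, Acta2 and Tagln stand both here and among the smooth muscle markers, and the collagen genes Col1a1, Col1a2 and Col3a1 also stand among the fibroblast markers. All these lists were drawn up with earlier results of these data known. For scale, 11 of 37 tested collagen chains (median -0.40) and 4 of 10 tested laminin chains (median -0.35) were called lower, and no difference between these groups and the 10 genes was tested.

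**Figure D4:**
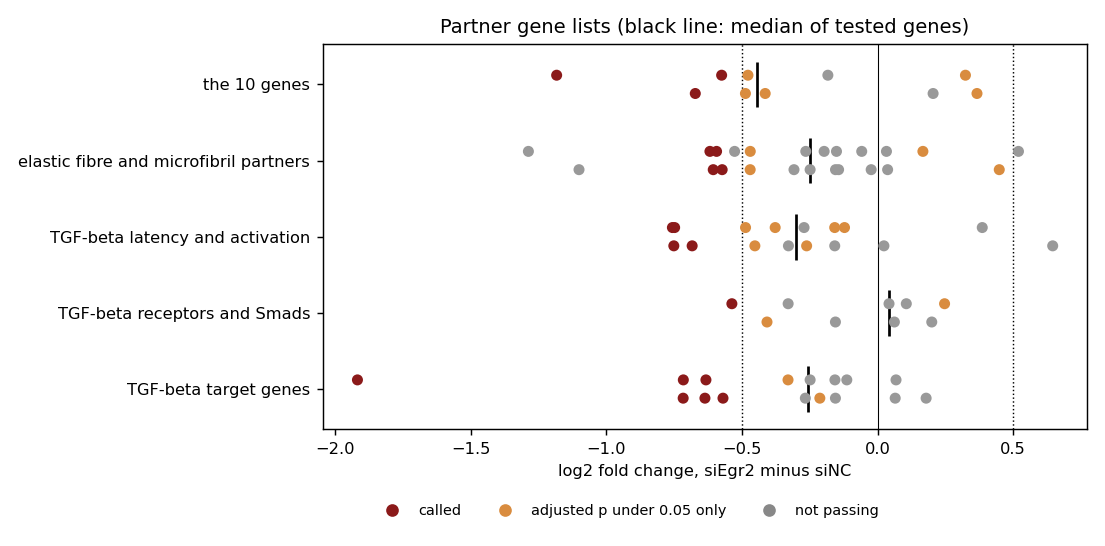
Log2 fold change (siEgr2 minus siNC) of the 10 genes and of each tested gene in 4 partner lists, with called genes in dark red, genes passing the adjusted p only in orange and the rest in grey. The black line is the median, -0.45 for the 10 genes and between -0.30 and 0.042 for the lists, and every called gene lies left of the lower dotted threshold at -0.5.

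Across the 12 libraries, the genes whose log2 level followed Eln most closely, of 12399 genes whose log2 CPM averaged 2 or more, were Surf4, Prnp and Vasn (Pearson r of 0.97, 0.97 and 0.97). For Fbln2 they were Slc9a3r1, Ccn1 and Palld (0.98, 0.98 and 0.98). These values include the difference between the groups. After subtracting each group's mean, r was 0.84 to 0.87 for the genes near Eln and 0.75 to 0.84 for those near Fbln2, over the same 12 libraries. The genes were picked from 12399 for their high r in these libraries, so the centred values are no independent support.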

How the data were processed

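For each of 12 libraries the authors deposited a column of counts per gene symbol, not normalized, from TRIzol-extracted RNA sequenced by Illumina. The submitters' processing notes name the build mm10. The aligner, the counting program, its use of strand and any selection of polyadenylated RNA are not given in the sources used here. One entry without a name was left out.

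The groups were compared with the robust quasi-likelihood test of edgeR 4.0.16 in R 4.3.3, using TMM factors, on the 16600 genes that filterByExpr kept, and p-values were adjusted over all of them (Benjamini-Hochberg). Calls needed a log2 fold change beyond 0.5 in size besides an adjusted p below 0.05, which are the study's thresholds. Standard errors were derived from the quasi-likelihood F statistic. Ratios within a library used log2(CPM + 0.5) and the exact permutation test over 924 assignments, two-sided. The procedure was tested on simulated data. Coordinates and exon lengths came from GENCODE M21 (GRCm38), with 95.6% of tested genes matched, and upstream sequences from RefSeq (GRCm38.p6).

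The genes and lists were chosen with earlier results of these data known. The text names the 10 genes, Egr2, up to 4 called genes of each list with the largest change, the TGF-beta ligands, Smad3, Efemp1, Efemp2 and the 3 genes most correlated with the called gene of highest level and with the one of largest change. Not every gene that this rule names is reported here. Other list members (Acta2, Tagln and the fibroblast collagens) are named only for standing in 2 lists. Cldn5, Aif1 and Itgam are named for having no count, and Itgav was named after its values were seen. The alternatives were other scalings, filters and thresholds, DESeq2 1.42.0, limma-voom (limma 3.58.1), a replicate block, thinning, removal of structural and mitochondrial RNA genes or of the trend with length, and libraries left out. Depth was 8034251 to 16683677 counts in the siEgr2 libraries, and thinning all libraries to the smallest total left 3 of the 10 genes called lower.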

Additional observations from a re-analysis of the deposited data

Results flagged for a closer look

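The level of Fbln5 in siEgr2 replicate 3, 27.4 CPM, stood apart from the other 5 siEgr2 libraries, which had 19.7 to 21.7 CPM. Without it the log2 fold change of Fbln5 was 0.12 in place of 0.20, and neither value passed the test (adjusted p = 0.645 and 0.375 in edgeR's quasi-likelihood test, over a range of 0.0684 to 0.920 for all alternatives). Without siNC replicate 5, which had 27.1 CPM, the change was 0.34 (adjusted p = 0.0684 in edgeR's test). This was looked at in 20 groups of 6 values, and in 1 of them a library stood apart, as often as chance alone gives (about 1).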

How the results depend on the processing

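The number of the 10 genes called lower was 3 in the analysis reported. It was 6 with library size only (1737 of all 16600 genes) and 5 with no filter on low counts (1046 of 30142). With no fold change threshold it was 6, against 11.3% of all tested genes. A log2 fold change over 1 left 1 gene, and the share of all genes was not counted at that threshold. With any 1 library removed, 3 to 5 of the 10 were called lower. Of all genes, 728 (of 16133) to 893 (of 17357) were. The number of the 10 called higher was 0 throughout except with no fold change threshold, where it was 2. By the adjusted p alone 8.57% of all tested genes were higher. Library size only shifted the median of all tested genes to -0.18, and the added genes are Ltbp2 (-0.66), Ltbp3 (-0.60) and Fbn1 (-0.67). The cause of the change without a filter was not tested. The genes passing the adjusted p numbered 8 in every other alternative at this threshold, although with library size only Ltbp4 dropped out and Fbln1 came in, and 7 when siEgr2 replicates 1 and 2 were left out together (chosen after seeing the data), where Ltbp2 had an adjusted p of 0.0525 in edgeR's test (0.000436 to 0.0525 over its alternatives). No log2 fold change of the 10 genes changed direction in any alternative run. The fall of Fbln2 lay between -1.37 and -1.11, that of Eln between -0.85 and -0.63 and that of Ltbp1 between -0.76 and -0.51, and these 3 were called in every alternative at the same thresholds. Ratios that differed numbered 6 to 7 with any 1 library removed and 6 with other offsets. The ratio of Ltbp2 to Ltbp3, with no difference shown, ranged from -0.10 without siNC replicate 4 to 0.0035, the opposite sign, without siEgr2 replicate 2. With the replicate number as a block, 3 genes were called lower and 8 passed the adjusted p, and Fbln2 was at -1.19. Whether the numbers pair the libraries is not stated. The correlation of deviations between libraries of the same number was -0.057 to 0.073 and over 0.1 in 0 of 6. No shared effect of the number was seen, and a small one could be missed. Over all genes the block gave 775 called lower and 349 higher in place of 844 and 437.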
